A study of Mus musculus with 20 samples.

Results

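Macrophages are the tissue phagocytes of the mononuclear lineage, and 10 genes that mark them were followed in mouse heart ventricle: Cd68, Laptm5, Lyz2, C1qa, C1qb, Csf1r, Cd14, Adgre1, Ctss and Fcgr3. They were found by gene symbol among all probe sets of the deposited array table, and 10 of 10 had a probe set linked to that gene alone. There were 16 such probe sets among 12488 in all, and the markers were 10 of 8251 genes with a probe set of their own. Another probe set was linked to both Lyz1 and Lyz2 and could not be attributed to either. Of the 16, 12 were bright enough to be tested and covered all 10 genes. The 4 left out were second probe sets of Cd68, Lyz2, Csf1r and Adgre1, and the Adgre1 one lay at the floor of 14.36 on 19 of 19 arrays. Those of Cd68 (14.36 to 17.41, 5 arrays at the floor) and Lyz2 (14.36 to 16.86, 6 at the floor) were close to it, and that of Csf1r ran from 18.43 to 28.34, with the groups overlapping.

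The study measured RNA of mouse ventricle on Affymetrix arrays, to learn what expression of tTA does in the heart. Arrays labelled tTA + Doxy numbered 5, arrays labelled tTA 8, arrays labelled FVBN + Doxy 4, and arrays labelled FVBN control 2. tTA is the tetracycline-controlled transactivator, an engineered transcription factor, and FVBN is the mouse strain, called wild type in the labels of the control arrays. Doxy was taken to be doxycycline, the drug that keeps tTA off its target promoters. Keywords on the control arrays name the alpha MHC promoter, which is active in heart muscle cells, and the labels used here give no transgenic line, dose, duration, sex or age. An array titled for cardiac tTA expression, 1 in number, carried no treatment and entered no comparison. The labels do not say that the arrays came from separate animals, so each p-value measures only the spread between these samples. Each run of array numbers holds 1 group: the tTA arrays have 2 runs, 7288 to 7311 (6 arrays) and 9310 and 9322, and the numbers of the other groups lie between these. Apart from those 2 tTA arrays, whose omission changed no marker's call, a cohort marked by the numbers cannot be told apart from the group.

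Values are intensities, the brightness of a probe set on a linear scale, after quantile normalization. Deposited medians lay between 60.74 and 62.45, and arrays of the same group correlated at r between 0.9928 and 0.9982. Of 16 cardiomyocyte marker genes 14 had a probe set and all 14 were tested, with a summed intensity of 47460 to 51060 on tTA + Doxy arrays, 47010 to 51490 on tTA arrays, 47310 to 50380 on FVBN + Doxy arrays and 47510 to 51200 on FVBN control arrays. These sums overlapped between all groups. They rest mostly on very bright probe sets, whose values quantile normalization sets by rank. The overlap is therefore no check on tissue composition, and single genes of this list differed, as given below. Macrophage transcripts are a small part of such RNA, and in bulk tissue fewer macrophages and less RNA per macrophage cannot be told apart.

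Macrophages live in the healthy heart between the muscle cells, where they clear debris and dead cells and take part in immune defence. Their growth and survival depend on the cytokines CSF1 and IL-34, which bind the receptor encoded by Csf1r. The markers fall into groups by role. Cd68, Laptm5, Lyz2 and Ctss encode proteins of the lysosome and of microbial killing or protein breakdown. C1qa and C1qb encode chains of C1q, the recognition molecule of the classical complement pathway. Csf1r, Cd14, Fcgr3 and Adgre1 encode proteins of the cell surface.

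Many macrophage genes are controlled by the transcription factor PU.1, and many of its sites hold the sequence GAGGAA. The 250 bases before the start of 4 markers are given here from RefSeq, build GRCm38.p6, each on the strand of its gene. These 4 are among the markers whose brightest probe sets varied together between arrays. Every match to GAGGAA, or to its reverse complement TTCCTC, is in capitals. Ctss lies at chr3:95526536-95526785 on the plus strand, C1qb at chr4:136886201-136886450 on the minus strand, Laptm5 at chr4:130913066-130913315 on the plus strand and Lyz2 at chr10:117282273-117282522 on the minus strand.
Ctss: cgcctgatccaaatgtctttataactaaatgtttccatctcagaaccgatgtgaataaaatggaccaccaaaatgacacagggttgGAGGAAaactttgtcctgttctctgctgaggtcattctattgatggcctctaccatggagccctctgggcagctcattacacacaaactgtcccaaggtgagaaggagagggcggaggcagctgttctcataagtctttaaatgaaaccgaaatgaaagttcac
C1qb: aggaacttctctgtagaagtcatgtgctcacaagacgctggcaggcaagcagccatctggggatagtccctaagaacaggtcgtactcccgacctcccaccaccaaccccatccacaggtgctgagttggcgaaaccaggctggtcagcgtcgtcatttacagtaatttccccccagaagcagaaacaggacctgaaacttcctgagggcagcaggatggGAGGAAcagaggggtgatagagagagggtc
Laptm5: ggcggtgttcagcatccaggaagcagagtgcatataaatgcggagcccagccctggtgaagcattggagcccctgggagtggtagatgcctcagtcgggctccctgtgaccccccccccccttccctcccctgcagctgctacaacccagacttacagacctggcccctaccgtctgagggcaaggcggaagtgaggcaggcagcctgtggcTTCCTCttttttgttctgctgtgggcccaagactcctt
Lyz2: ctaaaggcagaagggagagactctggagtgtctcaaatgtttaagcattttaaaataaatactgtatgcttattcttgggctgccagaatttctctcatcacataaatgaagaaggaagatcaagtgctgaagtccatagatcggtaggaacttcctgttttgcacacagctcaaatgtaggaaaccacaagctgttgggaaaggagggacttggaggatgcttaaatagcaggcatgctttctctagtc
The match began 164 bases before the start in Ctss, 30 in C1qb and 38 in Laptm5, and the Lyz2 window held none. Cd68 and Fcgr3, which followed the mean of the other markers least (r = 0.166 and 0.265), also held the motif. A link between the motif and the covariation was not tested. Of 6 markers with a window examined, these 4 with Cd68 and Fcgr3, 5 held the motif, against 23.3% of 32851 windows of the same length (7639 windows). The 6 markers had 7 windows and are counted as genes, while the share counts windows. Csf1r, Cd14, C1qa and Adgre1 had no window examined. A match is a description of the letters, not a bound site, and other forms of the site were not searched.

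Most markers kept nearly the same level on all arrays. The highest array exceeded the lowest by 1.89-fold for Lyz2, 1.71-fold for C1qb, 1.58-fold for Ctss and 1.56-fold for C1qa. For Laptm5, Cd68, Adgre1, Cd14, Csf1r and Fcgr3 the ratio lay between 1.14 and 1.32. The coefficient of variation over the 19 arrays ran from 4.3% for Fcgr3 to 16.8% for Lyz2. FVBN + Doxy arrays had the highest group mean for 7 of 10 markers, and tTA arrays the lowest for 6 of 10. For none of the 10 did groups next to each other in the order of means have separate ranges. Groups farther apart in the order were separate for some markers. C1qb lay at 85.89 to 120.4 on tTA arrays and 123.4 to 135.6 on FVBN + Doxy arrays, which differ in both tTA and Doxy. Its second probe set overlapped, at 52.73 to 69.59 and 54.67 to 64.7 on the same arrays. These 2 groups were not compared by a test, and the share of all probe sets that separate them was not counted. Cd68 averaged 75.74 ± 3.6 in tTA + Doxy, 71.31 ± 4.53 in tTA, 79.62 ± 3.77 in FVBN + Doxy and 76.69 ± 0.276 in FVBN control (SD, n = 5, 8, 4 and 2). Adgre1 averaged 61.46 ± 5.15 in tTA + Doxy, 60.51 ± 5.18 in tTA, 64.25 ± 2.01 in FVBN + Doxy and 60.33 ± 1.27 in FVBN control, nearly level in all groups. Fcgr3 averaged 45.43 ± 1.8 in tTA + Doxy, 46.75 ± 1.62 in tTA, 46.03 ± 2.3 in FVBN + Doxy and 43.15 ± 0.882 in FVBN control. The order of means, low to high, was tTA, tTA + Doxy, FVBN control and FVBN + Doxy for Cd68 and Lyz2, and tTA, FVBN control, tTA + Doxy and FVBN + Doxy for C1qa and C1qb.

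**Figure D1:**
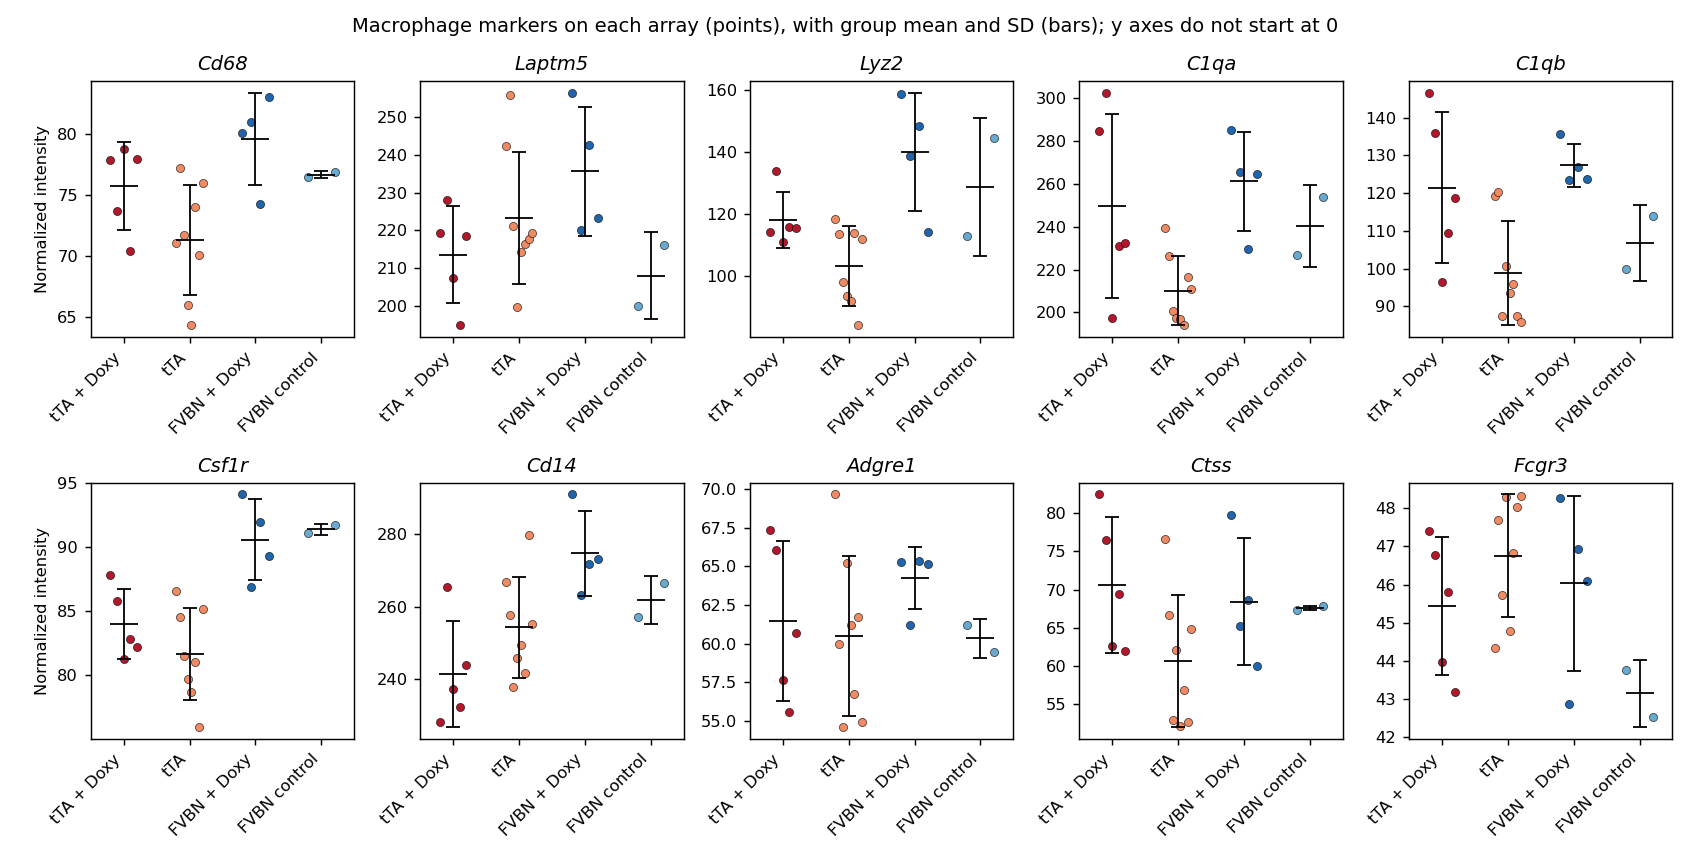
Normalized intensity of each marker (y axis, linear, not starting at 0) on each of the 19 arrays (points), by group on the x axis, with group mean and SD as bars. Cd14 and Csf1r sit lower on tTA + Doxy than on FVBN + Doxy arrays, with overlap. The C1q genes spread most within tTA + Doxy, and Ctss spreads widely in every group but FVBN control.

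The first comparison was between tTA + Doxy and FVBN + Doxy, which carry the same drug label and differ in tTA. Cd14 was the one marker that passed, lower in tTA + Doxy, and 9 of 10 log2 fold changes were negative, against 56.1% of all tested probe sets. Cd14 encodes the co-receptor that hands bacterial lipopolysaccharide to the TLR4 complex. Cd14 intensity was 228.3, 265.4, 237.3, 232.5 and 243.9 on the tTA + Doxy arrays, against 290.9, 263.2, 271.7 and 273.1 on the FVBN + Doxy arrays. The highest tTA + Doxy array, 7424, stood above the lowest FVBN + Doxy array, 8338, so the groups overlapped at that single point. The log2 fold change was -0.19 ± 0.05 (SE, 0.878-fold, 95% interval -0.30 to -0.08, limma adjusted p = 0.0342), with 5 of 5 tTA + Doxy arrays below the FVBN + Doxy mean. Of all 7453 tested probe sets, 5.89% were called in this comparison, 4.29% as higher and 1.6% as lower, and the markers had 0 and 1 of 10. None of the 10 markers had groups without overlap, which 6.24% of tested probe sets had as higher and 3.48% as lower. Of 5 other tested genes of lipopolysaccharide recognition and its signalling 0 passed in limma, with 2 at an unadjusted p under 0.05 and a median log2 fold change of -0.06. Over all tested probe sets, 21.1% had such a p and the median was -0.01.

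The call of Cd14 was not stable, while the size of its difference held. On the log2 scale it was -0.19 with all probe sets tested (adjusted p = 0.0589), -0.19 with only the compared arrays in the model (0.053) and -0.21 with a beta-actin term for RNA quality in the model (0.0505), each now short of the threshold. The call was also lost without any one of the tTA + Doxy arrays 7399 (0.077), 7485 (0.0792), 7486 (0.0795) and 7488 (0.0629), or of the FVBN + Doxy arrays 8337 (0.118), 8340 (0.0644) and 8341 (0.0783), while the log2 fold change stayed between -0.22 and -0.16 over all 19 such omissions. Cd14 averaged 241.5 ± 14.6 in tTA + Doxy (SD, n = 5), 254.3 ± 13.8 in tTA (n = 8), 274.7 ± 11.6 in FVBN + Doxy (n = 4) and 261.9 ± 6.56 in FVBN control (n = 2). Of the 4 groups tTA + Doxy had the lowest mean and FVBN + Doxy the highest.

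Of the other markers, Csf1r, Lyz2 and Laptm5 had an unadjusted p under 0.05 in the same comparison, each with 5 of 5 tTA + Doxy arrays below the FVBN + Doxy mean, and did not pass. In all, 4 of 10 markers had such a p, against 21.1% of tested probe sets. Csf1r, the receptor for CSF1, read 87.8, 85.76, 81.24, 82.81 and 82.15 on tTA + Doxy arrays and 94.11, 86.86, 91.98 and 89.33 on FVBN + Doxy arrays. Array 7399 reached into the FVBN + Doxy range, and Csf1r stood at -0.11 ± 0.04 on the log2 scale (adjusted p = 0.15). Lyz2, the lysozyme of macrophages and other myeloid cells, read 114.1, 133.8, 110.8, 115.9 and 115.4 on tTA + Doxy arrays, against 158.9, 138.8, 148.4 and 114.2 on FVBN + Doxy arrays. The lowest FVBN + Doxy array, 8341, lay among the tTA + Doxy values, and Lyz2 stood at -0.24 ± 0.11 on the log2 scale (adjusted p = 0.201). Laptm5, a lysosomal membrane protein of blood cells, had -0.14 ± 0.06 (adjusted p = 0.207), with 194.9 to 228 on tTA + Doxy and 220.1 to 256.4 on FVBN + Doxy arrays. The second Laptm5 probe set gave -0.10 ± 0.06 (adjusted p = 0.335).

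The remaining 6 markers had smaller differences, all with intervals that include 0. C1qa had a log2 fold change of -0.08 (95% interval -0.28 to 0.13) and C1qb of -0.08 (-0.33 to 0.16), or -0.02 (-0.16 to 0.12) at its second probe set. Ctss, the protease cathepsin S that trims the invariant chain for antigen presentation, had 0.04 (-0.19 to 0.28). The intervals of C1qa, of the brighter C1qb probe set, of Ctss and of Adgre1 are wide enough to hold a difference of the size seen for Cd14. Cd68, a heavily glycosylated protein of late endosomes and lysosomes, had -0.07 (-0.18 to 0.04). Adgre1, which encodes the surface antigen F4/80, had -0.07 (-0.21 to 0.07), and Fcgr3, a receptor for the constant part of IgG, -0.02 (-0.11 to 0.08). The median over the 10 markers was -0.08, against -0.01 over all tested probe sets.

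**Figure D2:**
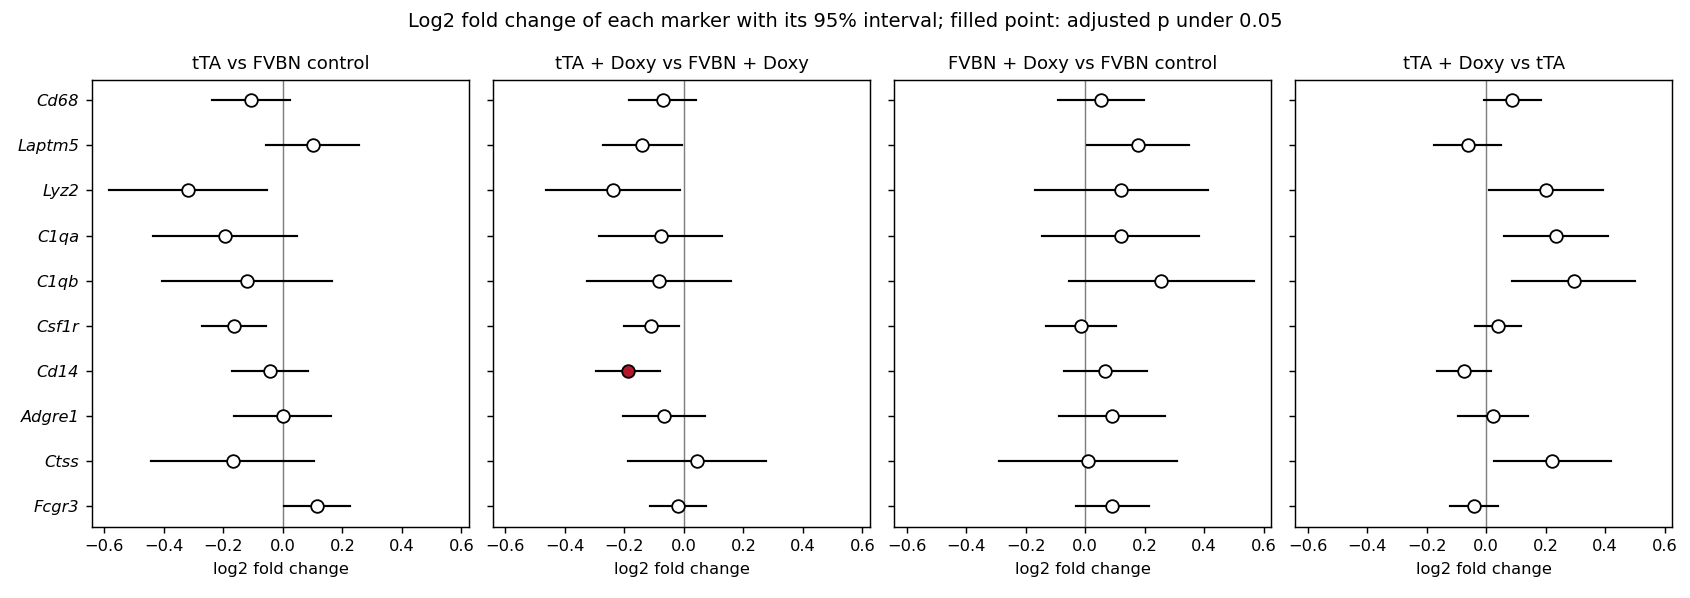
Log2 fold change of each marker (x axis) with its 95% interval (line), 1 panel per comparison, the group named first over the group named second. The single filled point is Cd14 at -0.19 in tTA + Doxy over FVBN + Doxy, and all other points are open, with an adjusted p above 0.05.

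Other genes around macrophage growth and lysosomes were counted from wider lists in the same comparison, where 4.29% of all tested probe sets were called higher and 1.6% lower. Of 11 tested genes of the CSF1 pathway 1 fell, Csf1 itself, the ligand of the Csf1r receptor (-0.18 ± 0.05, adjusted p = 0.0189). Csf1 ran from 215.4 to 249.6 on tTA + Doxy arrays and from 262 to 275.1 on FVBN + Doxy arrays, without overlap. FVBN control arrays, at 242.6 and 244.7, lay among the tTA + Doxy values. Of 17 lysosomal protease and related genes 3 rose, Lgmn, the asparaginyl endopeptidase legumain (0.34 ± 0.05, adjusted p = 0.00069), Ctsa, or cathepsin A (0.29 ± 0.06, adjusted p = 0.00736), and Ctsl, or cathepsin L (0.25 ± 0.07, adjusted p = 0.0287). All of these are made in many cell types. Lgmn averaged 120 in tTA + Doxy, 116.6 in tTA, 94.81 in FVBN + Doxy and 114.6 in FVBN control, so FVBN + Doxy was the group that stood apart. Of 10 tested cytokine and chemokine genes 1 fell, Tgfb1 (-0.18 ± 0.05, adjusted p = 0.034), which encodes a cytokine that drives scar formation and restrains immune cells.

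Lists of other immune cells showed no call. In these lists 0 genes passed in tTA + Doxy over FVBN + Doxy by limma. Tested were 12 other macrophage genes, 14 of a broad leukocyte list, 8 of complement, 8 of MHC class II and 7 of neutrophils. The rest were 7 genes of T and NK cells, 6 of B cells, 4 of mast cells and 1 further Fc receptor gene. At an unadjusted p under 0.05 there was 1 of the other macrophage genes and 3 of the leukocyte genes, and 0 of each of the other lists. Over all tested probe sets the share was 21.1%. Negative log2 fold changes were common in some lists, against 56.1% of all tested probe sets. They were seen for 12 of 14 leukocyte, 10 of 12 other macrophage and 7 of 7 neutrophil genes. The same held for 6 of 6 B cell genes and 6 of 7 T and NK cell genes. Other lists had 5 of 8 (complement), 5 of 8 (MHC class II), 2 of 4 (mast cell) and 1 of 1 (Fc receptor). The summed intensity of the 25 leukocyte genes with a probe set was 1925 to 2053 on tTA + Doxy, 1919 to 2079 on tTA, 2013 to 2156 on FVBN + Doxy and 1940 to 2057 on FVBN control arrays. That of the 13 neutrophil genes was 955.1 to 1035 on tTA + Doxy, 952.8 to 1069 on tTA, 998.3 to 1045 on FVBN + Doxy and 940.5 to 961.7 on FVBN control arrays.

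Single genes of other tissue cells passed in this comparison, in both directions, where 4.29% of all tested probe sets were called higher and 1.6% lower. Among 6 tested red cell genes Car1, a carbonic anhydrase, fell (-0.20 ± 0.06, adjusted p = 0.0464), and 6 of 6 had negative log2 fold changes. The summed intensity of the 7 red cell genes with a probe set ran from 3091 to 6810 on tTA + Doxy arrays and from 6458 to 7202 on FVBN + Doxy arrays, with 0 of them at the floor. Fbln1, a fibroblast matrix gene, fell (-0.25 ± 0.07, adjusted p = 0.0267, 1 of 15). Among cardiomyocyte genes Ryr2 (-0.58 ± 0.09, adjusted p = 0.000522) and Ckmt2 (-0.26 ± 0.06, adjusted p = 0.0117) fell, and Mybpc3 (0.29 ± 0.05, adjusted p = 0.00123) rose, 3 of 14 tested. Of 12 endothelial genes 0 passed in limma, with 2 at an unadjusted p under 0.05, against 21.1% of all tested probe sets. Beta-actin probe sets near the 3' and the 5' end give a log2 ratio that tracks RNA integrity and labelling. It was 0.362 ± 0.06 (SD, n = 5) in tTA + Doxy and 0.509 ± 0.079 (n = 4) in FVBN + Doxy. The part of blood, other cells and RNA quality in the marker values was not tested beyond the fit with this ratio.

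The second comparison was between tTA and FVBN control, without Doxy, and it rests on 2 control arrays. None of the 10 markers passed in limma, against 2.82% of all tested probe sets (0.993% higher and 1.82% lower), and 3 had an unadjusted p under 0.05, against 16.6%. The median log2 fold change was -0.11, against 0.01 over all tested probe sets, and 8 of 10 were negative, against 44.9%. The share of all probe sets called was 0.725% without control array 8177, 0.845% without 8182 and 0.362% with the beta-actin term, and 0 markers were called in each case. Csf1r came nearest to the threshold. It ran from 75.92 through a median of 81.24 to 86.59 on tTA arrays, against 91.07 and 91.68 on FVBN control arrays. All 8 tTA arrays were below both control arrays. The log2 fold change was -0.16 ± 0.05 (adjusted p = 0.0895), and over the arrays left out in turn the adjusted p lay between 0.0587 and 0.425. Groups without overlap, lower in tTA, were seen for 1 marker, Csf1r, and for 6.06% of tested probe sets.

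Fcgr3 was placed the other way. Its intensity ran from 44.33 through 47.26 to 48.33 on tTA arrays and was 43.77 and 42.52 on FVBN control arrays, again without overlap, which 6.68% of tested probe sets also showed as higher in tTA. The log2 fold change was 0.12 ± 0.05 (adjusted p = 0.28). Lyz2 read 83.99, 105.1 and 118.3 as lowest, median and highest on tTA arrays, against 113 and 144.5 on FVBN control arrays, which lay far apart. Its log2 fold change was -0.32 ± 0.13 (adjusted p = 0.204), with 8 of 8 tTA arrays below the control mean. It was -0.50 without control array 8177 and -0.14 without 8182, so its size rests on which control is kept. The probe set shared by Lyz1 and Lyz2 gave -0.33 ± 0.12 (adjusted p = 0.134), with 163.8 to 234.2 on tTA arrays and 221.7 and 254.5 on control arrays.

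C1qa, C1qb and Ctss stood in the same direction without passing. C1qa ran from 194 through 205.6 to 239.2 on tTA arrays, against 226.6 and 253.7 on FVBN control arrays (-0.19 ± 0.12, adjusted p = 0.421). C1qb ran from 85.89 through 94.73 to 120.4 on tTA arrays, against 99.75 and 113.9 on control arrays (-0.12 ± 0.14, adjusted p = 0.713). The highest tTA value of C1qb exceeded both controls. A second C1qb probe set differed in sign, at 0.21 ± 0.08 (adjusted p = 0.185). Ctss ran from 52.2 through 59.53 to 76.66 on tTA arrays, against 67.36 and 67.82 on control arrays (-0.17 ± 0.13, adjusted p = 0.553). Of the rest, Cd68 had -0.11 ± 0.06, Cd14 -0.04 ± 0.06, Laptm5 0.10 ± 0.08 and Adgre1 0.00 ± 0.08, with adjusted p-values between 0.415 and 0.999. The second Laptm5 probe set, like Fcgr3, was higher without overlap, at 181.6 to 210.1 on tTA arrays against 176.9 and 176.7 on control arrays (0.14 ± 0.07, adjusted p = 0.312, 8 of 8). In simulated data with the same group sizes, changes of 0.25 on the log2 scale were called in 40% of planted probe sets and changes of 0.5 in 94%. These shares cover all planted probe sets and are not the chance of a call for a given marker.

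Of the wider lists, those of immune cells, complement, lysosomal genes, cytokines, lipopolysaccharide signalling and the CSF1 pathway had 0 calls in tTA over FVBN control by limma. At an unadjusted p under 0.05 there were 2 of 17 lysosomal, 2 of 10 cytokine, 2 of 7 neutrophil and 2 of 5 lipopolysaccharide genes. The CSF1 pathway, class II and B cell lists had 1 gene each, and the other lists named here had 0. Over all tested probe sets the share with such a p was 16.6%. Emcn, a surface sialomucin of endothelial cells, fell (-0.28 ± 0.07, adjusted p = 0.027). So did Ryr2 (-0.82 ± 0.10, adjusted p = 5.86e-05), the calcium release channel of heart muscle, while Mybpc3, a thick filament protein, rose (0.22 ± 0.06, adjusted p = 0.0468). The red cell sum was 3270 to 5934 on tTA arrays and 5972 to 6371 on FVBN control arrays, and its part in the marker values was not tested. The beta-actin log2 ratio also separated the groups, at 0.145 to 0.445 on tTA arrays against 0.543 and 0.555 on FVBN control arrays. With the ratio in the model the median over the markers was -0.17, against -0.11 without it. Because the ratio did not overlap between these groups, this fit cannot tell RNA quality apart from tTA.

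The third comparison asked what Doxy does without tTA. In FVBN + Doxy over FVBN control 0 of 10 markers passed in limma, where 0.0403% of all tested probe sets did, and 1 had an unadjusted p under 0.05, against 11.8%. The log2 fold change was positive for 9 of 10 markers, with a median of 0.09 against 0.01 over all tested probe sets. Laptm5 read 256.4, 220.1, 242.5 and 223.3 on FVBN + Doxy arrays, against 199.9 and 216.1 on FVBN control arrays. The groups did not overlap, and the log2 fold change was 0.18 ± 0.08 (adjusted p = 0.411). The other Laptm5 probe set read 237.7, 203.9, 194.3 and 209 on FVBN + Doxy arrays and 176.9 and 176.7 on control arrays (0.25 ± 0.07, adjusted p = 0.269), again without overlap. C1qb read 135.6, 123.4, 127 and 123.7 on FVBN + Doxy arrays, against 99.75 and 113.9 on control arrays (0.26 ± 0.15, adjusted p = 0.496). Its second probe set was also higher without overlap, at 59.14, 55.78, 64.7 and 54.67 on FVBN + Doxy arrays against 51.05 and 54.27 on control arrays (0.15 ± 0.09, adjusted p = 0.492). With Adgre1, which met at 61.23 in array 8338 and the higher control, these made 3 markers higher without overlap, where 12.7% of tested probe sets were. The other 7 markers overlapped, with log2 fold changes from -0.01 for Csf1r to 0.12 for Lyz2 and C1qa.

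The fourth comparison asked what Doxy does in the presence of tTA. In tTA + Doxy over tTA 0 of 10 markers passed in limma, where 0.0671% of all tested probe sets did, and 4 markers had an unadjusted p under 0.05, against 7.7%. None had groups without overlap, as did 0.201% (higher) and 0.188% (lower) of tested probe sets. Those with such a p were the C1q chains, Ctss and Lyz2, all higher with Doxy in their means. C1qa read 284.8, 302.5, 197.2, 231.2 and 232.2 on tTA + Doxy arrays, against 194 to 239.2 on tTA arrays. Arrays 7399 and 7424 stood above all tTA arrays, and the other 3 lay among them. C1qb read 146.6, 135.8, 96.55, 109.5 and 118.8 on tTA + Doxy arrays, against 85.89 to 120.4 on tTA arrays, again with 7399 and 7424 above the rest. The log2 fold change was 0.23 ± 0.08 for C1qa (adjusted p = 0.483) and 0.29 ± 0.10 for C1qb (adjusted p = 0.444). At the second C1qb probe set it was -0.08 ± 0.06 (adjusted p = 0.787).

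Ctss read 82.45, 76.51, 62.67, 69.42 and 62.02 on tTA + Doxy arrays, against 52.2 to 76.66 on tTA arrays (0.22 ± 0.09, adjusted p = 0.579). Its values on 5 of 5 tTA + Doxy arrays were above the tTA mean. Lyz2 showed 0.20 ± 0.09 (adjusted p = 0.617), also in 5 of 5, and the probe set shared with Lyz1 0.25 ± 0.08 (adjusted p = 0.444). Cd68, Csf1r and Adgre1 had log2 fold changes of 0.09, 0.04 and 0.02, and Fcgr3, Laptm5 and Cd14 of -0.04, -0.06 and -0.08. The second Laptm5 probe set had the other sign, at 0.02. In this comparison a planted change of 0.25 was called in 92% of 50 simulated probe sets. Real changes of about that size, for C1qa and C1qb, were not called. The simulated data held 50 planted changes at each of several sizes, against 5 probe sets called here. The share therefore does not carry over to the markers. Of the other 17 lists 0 genes passed in limma, here or in FVBN + Doxy over FVBN control. At an unadjusted p under 0.05 there was at most 1 gene a list here and 3 there. The shares over all tested probe sets were 7.7% here and 11.8% there. The effect of Doxy with tTA minus that without it was called for 0 of 10 markers in limma, where 0.0134% of tested probe sets were, with 1 marker at an unadjusted p under 0.05, Laptm5 (-0.24 ± 0.10, adjusted p = 0.298). Its second probe set (-0.24 ± 0.09, adjusted p = 0.266) and that of C1qb (-0.23 ± 0.10, adjusted p = 0.323) did not pass either. The comparisons share arrays with each other, so their values stand side by side and are not independent.

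The markers varied together between arrays of the same group. After subtraction of group means, 44 of 45 pairs of markers had a positive Pearson correlation over the 19 arrays, with a median r of 0.375, while the median over all pairs of tested probe sets was -0.0013 and their 90th percentile 0.418. By a permutation test of 100000 resamples within groups, 12 of 45 pairs passed after Benjamini-Hochberg adjustment over the 45, all positive, and 5 passed by Spearman correlation. The pair with the highest r was Csf1r with Ctss (r = 0.854, permutation p = 0.00011, adjusted p = 0.00495), with rho = 0.814 (permutation p = 0.00062, adjusted p = 0.0279) and r = 0.827 without the 2 arrays with the most extreme deviations. C1qa with C1qb, whose products join in 1 molecule, had r = 0.759 (permutation p = 0.00128, adjusted p = 0.0175) and rho = 0.595 (permutation p = 0.019, adjusted p = 0.0783), and r = 0.677 without the 2 arrays with the most extreme deviations. C1qb with Ctss had r = 0.743 (permutation p = 0.00098, adjusted p = 0.0175) and rho = 0.695 (permutation p = 0.00358, adjusted p = 0.0382), and 0.680 without 2 arrays. Lyz2 with Csf1r had r = 0.710 (permutation p = 0.00156, adjusted p = 0.0175) and rho = 0.660 (permutation p = 0.00424, adjusted p = 0.0382), and 0.667 without 2 arrays.

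**Figure D3:**
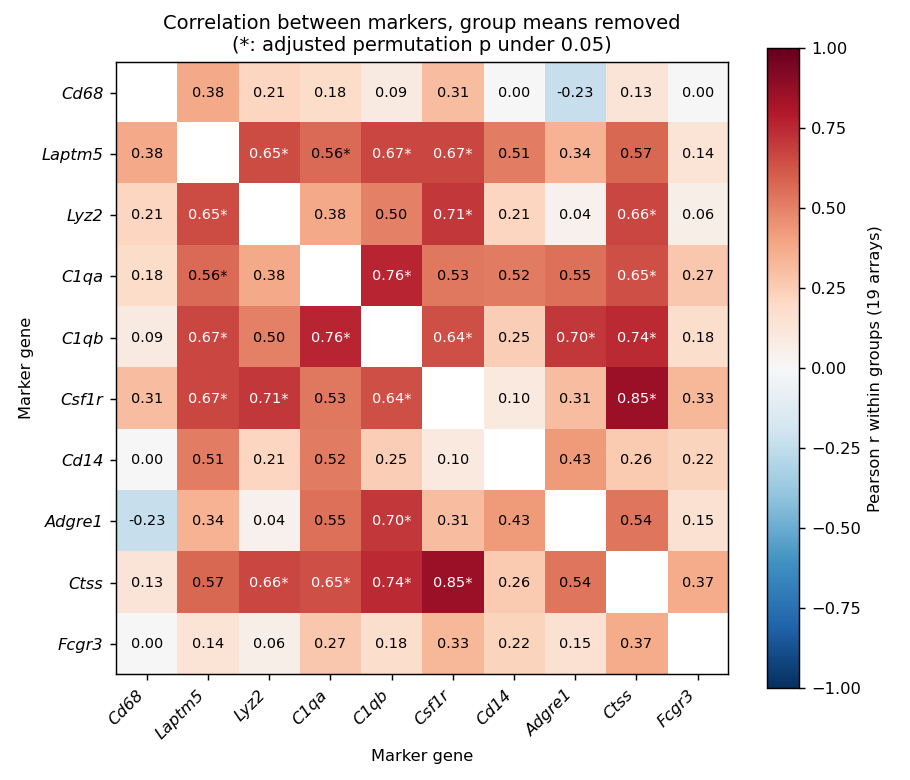
Pearson correlation between each pair of markers over the 19 arrays after subtraction of group means (colour and number), with an asterisk where the permutation p adjusted over 45 pairs was under 0.05. Csf1r with Ctss stands highest at 0.85, and the rows of Cd68, Cd14 and Fcgr3 carry no asterisk.

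Ctss, C1qb, Csf1r, Laptm5 and C1qa followed the mean of the other markers closely, at r = 0.829, 0.813, 0.793, 0.761 and 0.749. Lyz2 had 0.574, Adgre1 0.505 and Cd14 0.406. Cd68 (0.166) and Fcgr3 (0.265) hardly followed it, though both are commonly used as macrophage markers. The covariation rested on a few arrays: 12 passing pairs became 1 without tTA array 7288, 3 without FVBN + Doxy array 8337 and 5 without tTA + Doxy array 7424, and 8 to 15 in the other omissions. On array 8337, 10 of 10 markers were above their own mean over all grouped arrays, by 0.22 on the log2 scale on average. On 7424 it was 9 of 10 (0.14), on 7399 7 of 10 (0.11), on 7288 8 of 10 (0.07), and on tTA array 7310 0 of 10 (-0.16). These deviations are from the mean over all groups, so they include the level of the group and are not within-group deviations. FVBN + Doxy arrays 8338, 8340 and 8341 stood at 0.07, 0.11 and 0.06. The tTA arrays other than 7288 and 7310 ran from -0.15 (7294) to 0.04 (7292). The beta-actin log2 ratio was 0.504 on 8337, 0.27 on 7424, 0.389 on 7399, 0.414 on 7288 and 0.445 on 7310, and its part in the covariation was not tested. Cd14, the one marker called between groups, had no passing pair.

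Repeat probe sets of the same gene were a check on these within-group deviations. For Lyz2, its own probe set and the one shared with Lyz1 had r = 0.657 (permutation p = 0.00233, adjusted p = 0.00699 over 3 pairs), rho = 0.697 (permutation p = 0.00129, adjusted p = 0.00387) and r = 0.589 without the 2 arrays with the most extreme deviations. The Laptm5 probe sets had r = 0.372 (permutation p = 0.159, adjusted p = 0.238) and rho = 0.235 (permutation p = 0.377, adjusted p = 0.565), and r was -0.07 without 2 arrays. The C1qb probe sets had r = -0.17 (permutation p = 0.507, adjusted p = 0.507) and rho = -0.14 (permutation p = 0.596, adjusted p = 0.596). Probe sets of the same gene thus did not always move together. Values of C1qb hold for the brighter probe set alone, and so does the covariation of Laptm5 with other markers.

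Genes outside the 10 were ranked by their correlation with the mean profile of the markers over the 19 arrays, group means removed, which is a description of 6681 probe sets (median r -0.01, 99th percentile 0.599). The 5 most alike were C1qc (r = 0.858), the chain that completes C1q; Lcp1 (0.840), an actin bundling protein of leukocytes; H2-Ab1 (0.810) and H2-Aa (0.807), the chains of the class II molecule that presents peptides to helper T cells; and Pstpip1 (0.803), a cytoskeletal adaptor of blood cells. A second Lcp1 probe set had r = -0.24, so the likeness of Lcp1 holds for 1 probe set alone. In the reference annotation C1qb, C1qc and C1qa follow each other on chromosome 4 with no gene between them. C1qc read 462.4, 444.3, 357.8, 361.7 and 388.5 on tTA + Doxy arrays, 315.5 to 409.6 on tTA arrays, 465, 419.7, 421.1 and 433.2 on FVBN + Doxy arrays and 371.5 and 390.9 on FVBN control arrays. As for C1qa and C1qb, 7399 and 7424 were the highest tTA + Doxy arrays.

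Among the genes most like the markers, H2-Aa and H2-Ab1 varied widely between tTA arrays. H2-Aa read 435.2, 478.8, 300.5, 395.2 and 338.4 on tTA + Doxy arrays, 465.5, 446.2, 179, 284.8, 248.9, 190.2, 229.3 and 332.4 on tTA arrays, 395.2, 312.4, 263.4 and 338.1 on FVBN + Doxy arrays and 226.8 and 319.2 on FVBN control arrays. The high tTA arrays were 7288 and 7292, which were also high for C1qa, C1qb and Ctss. H2-Ab1 read 235 and 187.1 on those arrays, against 108.2 to 146.9 on the other 6 tTA arrays. Of 8 tested class II genes 4 exceeded the 99th percentile of r, with a list median of 0.558. The list medians were 0.348 for 14 leukocyte genes, with 3 above that percentile, 0.265 for 12 other macrophage genes, with 1 above it, 0.267 for 6 red cell genes, 0.237 for 11 CSF1 pathway genes, with 1 above it, 0.235 for 7 T and NK cell genes, 0.204 for 6 B cell genes and 0.160 for 7 neutrophil genes. The red cell, T and NK, B cell and neutrophil lists had 0 above it. Heart muscle, endothelial and fibroblast lists had medians of -0.14, -0.15 and -0.15. Genes in none of the lists ranked high too. Ranks 6 to 9 were the MHC class I genes H2-D1 (r = 0.799) and H2-K1 (0.799), then Ifi27 (0.797) and B2m (0.797). The likeness was thus not particular to class II or leukocyte genes.

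**Figure D4:**
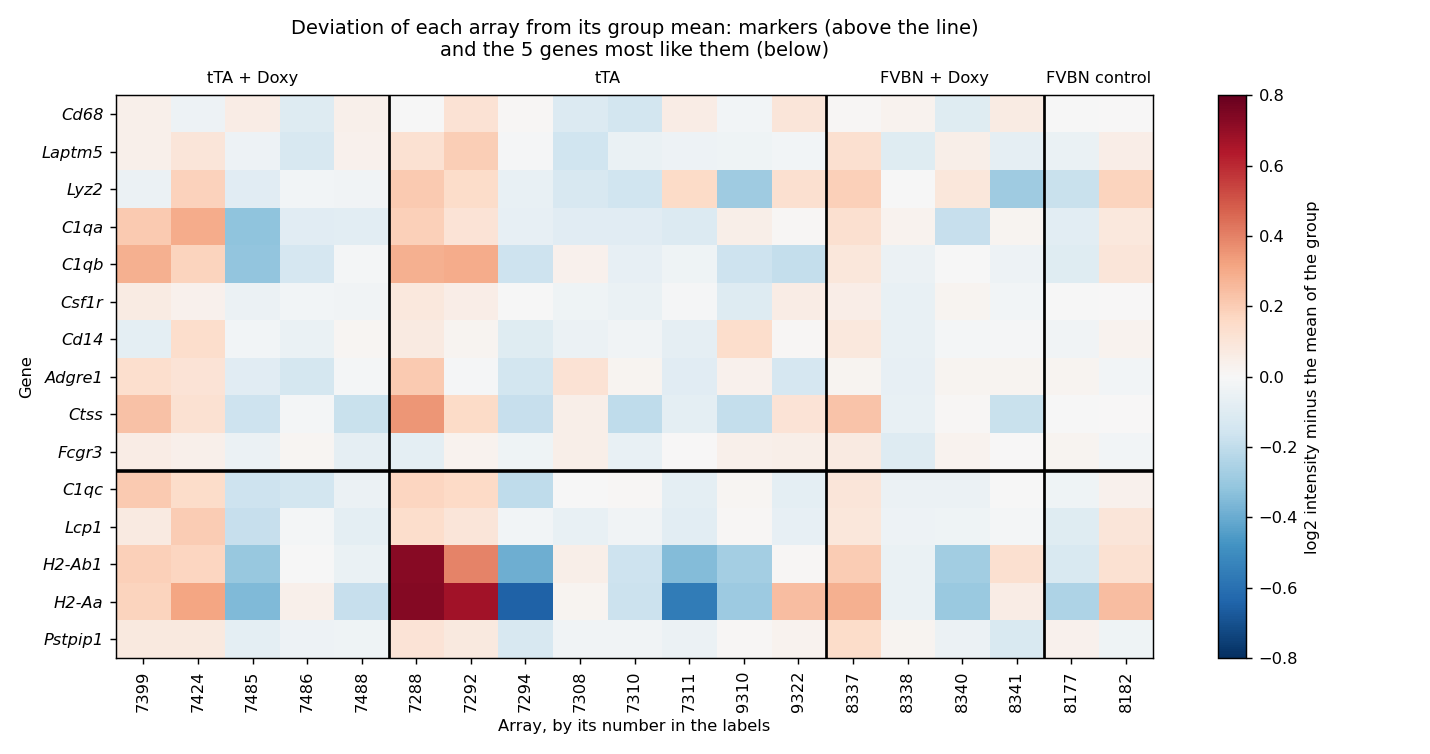
Log2 intensity of each gene (rows) on each array (columns, by array number and group) minus the mean of its group, for the 10 markers above the line and the 5 genes most like them below it. Arrays 7399, 7424, 7288, 7292 and 8337 are mostly above their group means, and H2-Ab1 and H2-Aa have the widest deviations.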

How the data were processed

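RNA of mouse ventricle was measured on Affymetrix arrays. The authors deposited 1 intensity per probe set and array on a linear scale; their summary, background correction and normalization were not given in the sources used here, so background correction could not be varied. Depth does not apply, and the number of arrays limits the precision.

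Probe sets were named through the platform annotation given with the data: of 12422 left after 66 control probe sets, 10833 were linked to 1 gene, 396 to several and 1193 to none, and 10817 symbols were updated by gene number. In R 4.3.3 with limma 3.58.1, intensities of the 19 grouped arrays were quantile normalized, raised to a floor at the 10th percentile (14.36) and log2 transformed. The brightest 60% (7453 probe sets, 5658 genes) were fitted with 4 group means and 15 residual degrees of freedom (lmFit, contrasts.fit, eBayes with trend and robust), with Benjamini-Hochberg adjustment over all tested probe sets and calls at an adjusted p under 0.05. The fit was tested on simulated data. Correlations used Python 3.11.15 on log2 values with group means removed. A gene is given by its brightest probe set unless a second is named.

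All probe sets of the 10 members are named, those too dim to be tested by their range alone. From the other 17 lists, up to 4 called genes with the largest change per comparison are named, and the 5 probe sets most like the members. Ranks 6 to 9 of that likeness were added after the values were seen. The members and lists were chosen with earlier results of these data known, and support nothing by their choice. Arrays singled out in the text were chosen after their values were seen.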

Additional observations from a re-analysis of the deposited data

Results flagged for a closer look

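Chance flags about 1 in 20 groups, and of 36 groups of 4 or more arrays checked for a value far from the others, 2 were flagged. Lyz2 on tTA + Doxy array 7424 read 133.8, against 110.8 to 115.9 on the other tTA + Doxy arrays, a gap of 0.762 of the group's range. Adgre1 on FVBN + Doxy array 8338 read 61.23, against 65.17 to 65.32 on the other FVBN + Doxy arrays, a gap of 0.965 of the range.

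The array without a group, titled for cardiac tTA expression, entered no comparison. In deposited intensities it stood above both FVBN control arrays for 7 of the markers. It read 225 for Laptm5, against a highest control value of 217.4, and 207.9 against 177.6 at the second Laptm5 probe set. C1qa read 275 (control 255.1), and C1qb 133.3 (114) and, at its second probe set, 54.97 (54.17). Csf1r read 97.26 (91.59), Adgre1 68.13 (60.59), Ctss 81.82 (67.59) and Fcgr3 49.88 (43.27). For Csf1r, Ctss and Fcgr3 this was also above the highest grouped array, at 93.77, 81.36 and 48.7. No group or replicate is known for it, so these are values with no test.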

How the results depend on the processing

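Of 1430 member results recomputed under alternatives (other scaling, floors, brightness limits, no trend, fewer arrays, a beta-actin covariate, other probe sets and each array left out), 1420 kept their call, 10 lost it and 0 gained one. All 10 were Cd14 in tTA + Doxy over FVBN + Doxy. The count of markers called there was 0 with all probe sets tested, with only the compared arrays and with the beta-actin covariate, and 0 to 1 when arrays were left out in turn. The count of correlated pairs, 12, was 1 to 15 when arrays were left out in turn. A further 29 values, none of them called, took the other sign, such as C1qb in tTA over FVBN control (0.21 at its second probe set) and Adgre1 there (up to 0.02).

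Over all probe sets, the 210 calls in tTA over FVBN control became 54 without control array 8177, 63 without 8182 and 27 with the beta-actin covariate. Scaling moved their split from 74 higher and 136 lower to 46 and 221 with equal medians and to 69 and 207 with no normalization. The 439 calls in tTA + Doxy over FVBN + Doxy became 272 without tTA + Doxy array 7485, 270 without 7488, 271 without FVBN + Doxy array 8337, 240 without 8341 and 284 with all probe sets tested. No paired analysis was possible because the array numbers are not shared between groups. Slide and scan batches were not run, since the processed values carry neither.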
